A study of Mus musculus with 12 samples.

Results

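The genes described here are 10 members of the ATF4 arm of the integrated stress response: Atf4, Atf5, Ddit3, Trib3, Asns, Chac1, Sesn2, Phgdh, Psat1 and Ddit4. They were chosen by symbol, as a response that inhibitors of mitochondrial respiration are known to raise, and were read from a table of 54532 gene rows and 12 RNA-seq libraries. The 10 symbols matched 11 rows, because Ddit3 stands there with a pair of identifiers, and all 10 genes were among the 15003 that passed the filter on low counts. The libraries came from lineage-negative, cKit-positive bone marrow cells, the fraction that holds blood stem and progenitor cells, sorted from mice and never cultured. The mice were on C57BL/6, and every group, controls included, carried the B6. CgTg(Mx1-cre)1Cgn/J transgene, in which an interferon-inducible promoter drives Cre in blood cells and in several other tissues. Mutant cells were Dnmt3afl-R878H/+ and control cells were Dnmt3a+/+. Both had competed in vivo during 1 month of metformin, a biguanide drug for diabetes that inhibits respiratory complex I, or of vehicle. The 4 groups had 3 libraries each: mutant cells with metformin (RH MET), mutant cells with vehicle (RH VEH), wild-type cells with metformin (WT MET) and wild-type cells with vehicle (WT VEH). The labels give 2 animals per treatment group, give no age, and do not tie libraries to animals. Taken as stated, 2 animals for 3 libraries would mean that some libraries of a group share an animal. Mutant and wild-type libraries of the same treatment may share animals as well. The fits have no term for the animal and treat the 12 libraries as independent. The p-values below measure the spread between libraries, which may be partly technical.

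The integrated stress response starts with a kinase that senses amino acid shortage, misfolded protein, double-stranded RNA or low haem, and that phosphorylates the translation initiation factor eIF2. Translation then falls in general while that of a few mRNAs, Atf4 among them, goes up, and the ATF4 protein switches on genes for amino acid synthesis, uptake and stress control. Respiratory inhibitors reach the kinase HRI through the mitochondrial protease OMA1 and its substrate DELE1, as shown in human cell lines, and in human blood-forming stem cells the ATF4 program is known for being more active than in their progeny. Much of the control of ATF4 is on translation, which mRNA counts do not show.

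Progenitor markers were present in every library: Kit, the receptor used for the sort, had 118 to 200 CPM (counts scaled to library size with TMM factors, the unit of all levels below), the stem and progenitor gene Cd34 had 53.3 to 158 CPM and Flt3 had 14.6 to 59.2 CPM. Library totals ran from 13359583 to 21938003 counts. RH VEH 2 and WT MET 2 stood apart, with 40.8% and 33.3% of their counts on the mitochondrial genome, against 1.57% to 4.32% in the other 10 libraries. The libraries also fell into 2 rounds of deposit, set by equal counts in all 54532 rows and not by column name. RH MET 1 and 2, RH VEH 1, WT MET 1 and WT VEH 1 and 2 were also columns of a second, smaller table (round 1), where the counts of RH VEH 1 stand under the name RH_VEH2. The other 6 libraries, which include RH VEH 2 and WT MET 2, were not in it (round 2). The fold changes below come from a fit with a term for the round, unless another setting is named, and those of the 10 genes for metformin in each genotype are all given with and without RH VEH 2 and WT MET 2.

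Set per kilobase of exon so that genes can be compared, the transcription factor Atf4 had the highest level, with a median over the 12 libraries of 181 CPM per kb. The asparagine synthetase Asns followed at 75.5 CPM per kb, and Phgdh, the enzyme that opens serine synthesis, stood at 67 CPM per kb. In the middle were Ddit3, which codes for the factor CHOP, at 28.9, the next serine enzyme Psat1 at 25.4 and the mTORC1 inhibitor Ddit4 (REDD1) at 17 CPM per kb. Sesn2, a leucine sensor and inhibitor of mTORC1, had 7 CPM per kb and Atf5, a factor close to ATF4 in structure, had 5.7 CPM per kb. The pseudokinase Trib3, a target of CHOP, reached only 1.19 CPM per kb, and Chac1, which breaks down glutathione, 0.407 CPM per kb. The ranges over libraries of Asns (52.8 to 99.7) and Phgdh (44.1 to 76) overlapped, as did those of Ddit3 (15.4 to 43.2) and Psat1 (18.6 to 34.9). Trib3 and Chac1 were thus described from few reads, 8 to 71 counts for Trib3 and 0 to 28 counts for Chac1.

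Some of the genes share sequence with a neighbour, and the strand setting of the counting is not known here. Atf5 (ENSMUSG00000038539, mm10 chr7:44812256-44816658, minus strand) overlaps Nup62 by 571 bases on the other strand, and Nup62 had 38551 counts in all, against 2510 for Atf5. Ddit3 (ENSMUSG00000025408, mm10 chr10:127290774-127296288, plus strand) overlaps Mars by 68 bases on the other strand. The second Ddit3 row (ENSMUSG00000116429) has 105 bases of exon inside the first and had 0 counts in every library, so the first was used. For Atf5 and Ddit3, reads from the shared bases could not be assigned to 1 gene with certainty. Atf4 (chr15:80255184-80257541, plus strand), Trib3, Asns, Chac1, Phgdh and Ddit4 (chr10:59949669-59951834, minus strand) overlap no other gene of the table. Trib3 (ENSMUSG00000032715) lies at chr2:152337422-152344032 on the minus strand, Chac1 (ENSMUSG00000027313) at chr2:119351229-119354381 on the plus strand and Asns (ENSMUSG00000029752) at chr6:7675169-7693254 on the minus strand. Phgdh (ENSMUSG00000053398) lies at chr3:98313170-98339990, Psat1 (ENSMUSG00000024640) at chr19:15904678-15947337 and Sesn2 (ENSMUSG00000028893) at chr4:132492032-132510501, all 3 on the minus strand.

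**Figure D1:**
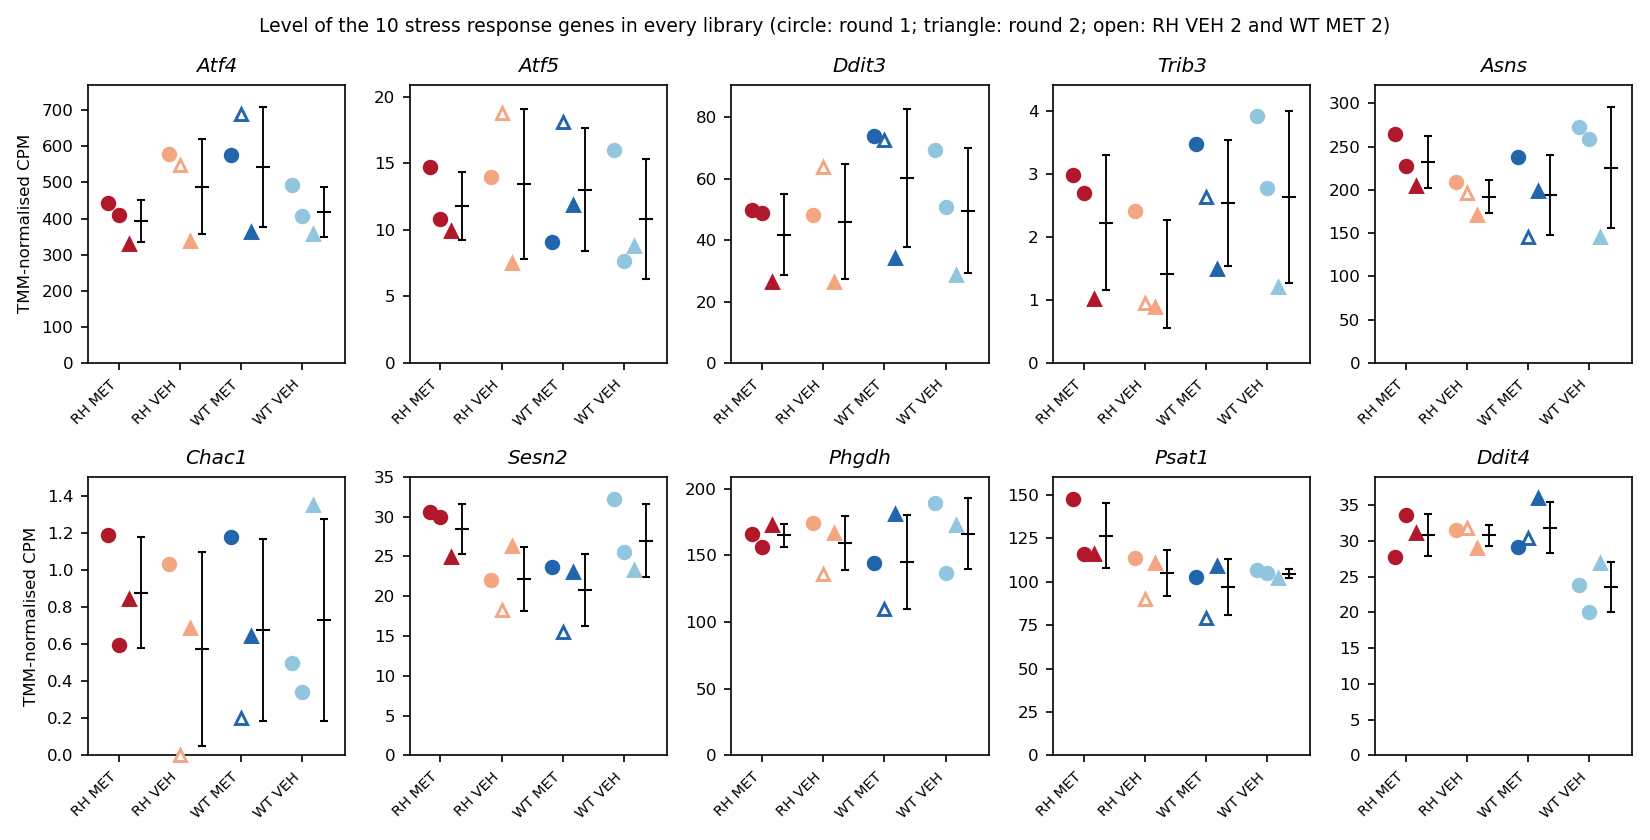
The level in TMM-normalised CPM (y axis, from 0) is drawn for each of the 10 genes in every library of the 4 groups; circles are round 1, triangles round 2, open symbols RH VEH 2 and WT MET 2, and bars the mean ± SD of 3 libraries. In 4 genes (Atf4, Ddit3, Trib3 and Asns) the filled triangles lie below every circle, and for Ddit4 the 3 WT VEH libraries (20 to 26.9 CPM) lie below those of the other groups.

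ATF4 and its relatives bind a composite element that joins a C/EBP site to an ATF site, and the proximal promoters of the members were searched for it because the genes are grouped as its targets. The sequences are those of RefSeq (GRCm38.p6, 250 bases before to 50 after each start site), with 12 promoters for the 10 genes. The letters TGATGNAA, on either strand, were in the promoters of 1219 of 27025 genes of the mouse table, or 4.51%. Of the 10 genes, 3 had them, Asns, Chac1 and Trib3. Counted by promoter, they were in 1304 of 32851, or 3.97%, and in 3 of the 12 promoters of the members. A second form, TGNTGCAAT, was added after reading these promoters of the members, so its presence among them was fixed in advance and is no test. It was in those of Trib3 and Psat1, and in those of 211 genes of the mouse table (0.781%). By promoter this was 221 (0.673%). A site that joins the whole of both forms would have matched each of them. Each window below has 30 bases, 5′ to 3′ on the gene's strand, with the match in capitals.
Asns, chr6:7693214-7693243, minus strand: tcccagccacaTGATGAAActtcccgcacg
Chac1, chr2:119351038-119351067, plus strand: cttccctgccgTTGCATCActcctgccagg
Trib3, chr2:152344028-152344057, minus strand: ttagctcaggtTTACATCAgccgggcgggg
Trib3, chr2:152344074-152344103, minus strand: gggtcacagaTGGTGCAATcccgggccgct
Psat1, chr19:15925176-15925205, minus strand: cgcgggtggcTGGTGCAATcccctgctctc
The first base of the match lay 23 bases before the start site in Asns, 193 before it in Chac1, 136 before it in Psat1, and 33 before and 15 after it in Trib3. The upstream 250 bases of Asns and Chac1 are given whole because these were the most and the least abundant of the enzymes per kilobase and both hold the first form.
Asns, chr6:7693210-7693459, minus strand: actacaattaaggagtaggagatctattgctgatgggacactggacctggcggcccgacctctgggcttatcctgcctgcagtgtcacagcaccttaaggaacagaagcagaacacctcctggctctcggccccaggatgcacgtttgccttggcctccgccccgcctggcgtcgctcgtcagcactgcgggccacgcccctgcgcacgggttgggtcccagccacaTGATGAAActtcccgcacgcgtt
Chac1, chr2:119350992-119351241, plus strand: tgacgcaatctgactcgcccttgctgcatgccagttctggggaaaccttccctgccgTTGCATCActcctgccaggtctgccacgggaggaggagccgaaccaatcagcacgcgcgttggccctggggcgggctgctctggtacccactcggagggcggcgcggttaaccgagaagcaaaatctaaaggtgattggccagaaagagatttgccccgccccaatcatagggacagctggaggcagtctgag
A match describes letters in these windows and is no measure of binding.

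Metformin was first compared with vehicle in mutant cells. Of the 10 genes, 0 passed the test (edgeR's quasi-likelihood test on the counts, adjusted by Benjamini-Hochberg over all 15003 genes, adjusted p under 0.05), on a background of 0% of all genes. At an unadjusted p under 0.05 there were again 0 of 10 genes, against 2.43% of all genes, and DESeq2 called 0 of 10 genes and 0.142% of all genes. On the log2 scale 7 of the 10 fold changes were above 0 and 3 below it, with a median of 0.09 against -0.01 over all genes tested, and the adjusted p ran from 0.932 to 0.966.

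Of the transcription factors, 3 of 3 had negative log2 fold changes in mutant cells, and those of Ddit3 and Atf5 were above 0 without RH VEH 2 alone. Atf4 had 443, 409 and 330 CPM in RH MET, against 579, 548 and 338 CPM in RH VEH. The groups overlapped through RH VEH 3, and the log2 fold change was -0.41 ± 0.231 (SE, 95% interval -0.91 to 0.09, edgeR adjusted p = 0.932). Without RH VEH 2 and WT MET 2 it was -0.27. Ddit3 had 50, 48.9 and 26.5 CPM in RH MET, against 48.1, 63.7 and 26.3 CPM in RH VEH, so each group had its lowest library in round 2 at almost the same level. Its log2 fold change was -0.41 ± 0.371 with all libraries and 0.01 without the pair high in mitochondrial transcripts. Atf5 had 14.7, 10.8 and 9.94 CPM in RH MET, against 14, 18.8 and 7.53 CPM in RH VEH, with the highest value in RH VEH 2. Its log2 fold change was -0.19 ± 0.393, and 0.11 without RH VEH 2 alone.

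The enzymes and the mTORC1 inhibitors gave small differences in mutant cells. Psat1 had 148, 116 and 116 CPM in RH MET, against 114, 90.1 and 111 CPM in RH VEH. It was 1 of 10 genes whose RH MET libraries all lay above the RH VEH ones, as did 4.11% of all genes, and 0 of 10 genes had them all below, as in 2.81% of all genes. For Psat1 the nearest libraries differed by less than the spread within either group. The log2 fold change of Psat1 was 0.22 ± 0.152 (95% interval -0.1 to 0.55, edgeR adjusted p = 0.932). Asns had 264, 227 and 205 CPM in RH MET, against 209, 196 and 171 CPM in RH VEH, which overlap, and a log2 fold change of 0.12 ± 0.171. Sesn2 had 30.6, 29.9 and 24.9 CPM in RH MET, against 22, 18.3 and 26.3 CPM in RH VEH, with a log2 fold change of 0.27 ± 0.2. Phgdh averaged 165 ± 8.15 CPM in RH MET and 159 ± 20.4 CPM in RH VEH (SD, n = 3 each). Ddit4 averaged 30.9 ± 2.96 CPM in RH MET and 30.8 ± 1.47 CPM in RH VEH, a log2 fold change of 0.04 with a 95% interval of -0.3 to 0.38.

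The lowest genes had wide intervals. Trib3 had 2.98, 2.7 and 1.01 CPM in RH MET, against 2.41, 0.956 and 0.885 CPM in RH VEH, and a log2 fold change of 0.24 with a 95% interval of -0.55 to 1.03. Chac1 had 1.19, 0.593 and 0.845 CPM in RH MET, against 1.03, 0 and 0.689 CPM in RH VEH. The 0 in RH VEH 2 allows up to 0.358 CPM (3 counts of that library, counting error only), and the 95% interval of the log2 fold change, -1.36 to 2.25, is too wide to show a difference of a few fold at this depth. Without RH VEH 2 and WT MET 2 the log2 fold changes in mutant cells were 0.10 for Atf5, 0.22 for Trib3, 0.21 for Asns, 0.05 for Chac1, 0.20 for Sesn2, -0.03 for Phgdh, 0.16 for Psat1 and 0.04 for Ddit4. The 10 genes then had 8 values above 0 and a median of 0.08.

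In wild-type cells, 0 of the 10 genes passed the edgeR test for metformin against vehicle (adjusted p 0.876 to 0.989), on a background of 0% of all genes, and DESeq2 called 0 of 10 genes and 0.12% of all genes. At an unadjusted p under 0.05 there was 1 gene, Ddit4, against 4.03% of all genes. The fold changes were split 5 above and 5 below 0, with a median of 0.12 against 0.01 over all genes.

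Ddit4, which is induced by ATF4, by hypoxia and by glucocorticoids and restrains mTORC1, was that gene. It had 29.2, 30.5 and 36 CPM in WT MET, against 23.8, 20 and 26.9 CPM in WT VEH. No library of WT VEH reached the lowest WT MET value, and Ddit4 was 1 of 10 genes so placed, against 4.98% of all genes, while 0 of 10 genes were placed the other way, against 4.4% of all genes. The log2 fold change was 0.40 ± 0.156 (95% interval 0.06 to 0.74), with an unadjusted p of 0.0237 and an adjusted p of 0.876 (edgeR), so that it did not pass. Leaving out each library in turn gave 0.31 to 0.50, and without RH VEH 2 and WT MET 2 it was 0.43. Within round 1, where only WT MET 1 stands for its group, it was 0.40. Within round 2, where only WT VEH 3 stands for its group, it was 0.28.

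The values of Atf4 and Ddit3 in wild-type cells lay on the other side from those in mutant cells. Atf4 had 575, 690 and 362 CPM in WT MET, against 493, 407 and 356 CPM in WT VEH. The groups overlapped, since WT MET 3 lay below 2 of the vehicle libraries, and the highest value was that of WT MET 2. The log2 fold change was 0.49 ± 0.232 (95% interval -0.02 to 0.99, edgeR adjusted p = 0.876), and 0.19 without WT MET 2 alone. Ddit3 had 74, 72.5 and 34.3 CPM in WT MET, against 69.5, 50.7 and 28.7 CPM in WT VEH, with a log2 fold change of 0.54 ± 0.367 and of 0.22 without WT MET 2. Trib3 had 3.48, 2.64 and 1.5 CPM in WT MET, against 3.92, 2.78 and 1.21 CPM in WT VEH. Its fitted log2 fold change of 0.45, which takes the round into account while the group means do not, was 0.15 without WT MET 2.

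The enzymes in wild-type cells gave values around or below 0. Asns had 238, 145 and 199 CPM in WT MET, against 273, 259 and 145 CPM in WT VEH, with the lowest library of each group at the same level and a log2 fold change of -0.04 ± 0.173. Phgdh had 144, 110 and 181 CPM in WT MET, against 189, 137 and 173 CPM in WT VEH, a log2 fold change of -0.2 ± 0.189 that was -0.06 without WT MET 2. Psat1 averaged 97.1 ± 16 CPM in WT MET and 105 ± 2.71 CPM in WT VEH (SD, n = 3 each), with its lowest value in WT MET 2. Sesn2 had 23.7, 15.5 and 23.1 CPM in WT MET, against 32.2, 25.5 and 23.3 CPM in WT VEH, a log2 fold change of -0.3 ± 0.199, and WT MET 2 was again the lowest. Atf5 had 9.08, 18.1 and 11.9 CPM in WT MET, against 16, 7.66 and 8.81 CPM in WT VEH, which overlap, and a log2 fold change of 0.29 (95% interval -0.59 to 1.17). That of Atf5 was -0.01 without WT MET 2, and the 12 fits that each left out a library gave up to 0.66 (without WT MET 1). Chac1 had 1.18, 0.203 and 0.644 CPM in WT MET, against 0.497, 0.341 and 1.35 CPM in WT VEH, and a 95% interval of -1.88 to 1.73. Without RH VEH 2 and WT MET 2 the log2 fold changes in wild-type cells were 0.21 for Atf4, 0.04 for Atf5, 0.25 for Ddit3, 0.15 for Trib3, 0.05 for Asns, 0.31 for Chac1, -0.19 for Sesn2, -0.07 for Phgdh and 0.02 for Psat1. The 10 genes then had 8 values above 0 and a median of 0.10.

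Over both genotypes together, 0 of 10 genes passed the edgeR test for metformin, on a background of 0% of all genes. At an unadjusted p under 0.05 there were 0 genes, against 1.63% of all genes, and DESeq2 called 0, against 0.127% of all genes. Metformin and vehicle libraries overlapped for all 10 genes, where 0.0667% of all genes had every metformin library above and 0.00667% had every one below. Here 8 of the 10 fold changes were above 0, with a median of 0.06. Among the 8 genes with over 100 counts in every library the largest was that of Ddit4, with a log2 fold change of 0.22 ± 0.107 (95% interval -0.01 to 0.45). The 95% intervals of 6 genes, Atf4 (-0.31 to 0.38), Asns (-0.22 to 0.29), Sesn2, Phgdh (-0.35 to 0.21), Psat1 (-0.15 to 0.31) and Ddit4, leave out a change of 1.5-fold in either direction, whereas those of Ddit3 (-0.48 to 0.61), Trib3 (-0.19 to 0.88), Atf5 and Chac1 do not. This holds for the mean of the genotypes only, which for Atf4 joins -0.41 in mutant cells and 0.49 in wild-type cells. In mutant cells alone the intervals of 4 genes leave out 1.5-fold (Asns, Phgdh, Psat1 and Ddit4). In wild-type cells alone those of 2 genes do (Asns and Psat1).

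**Figure D2:**
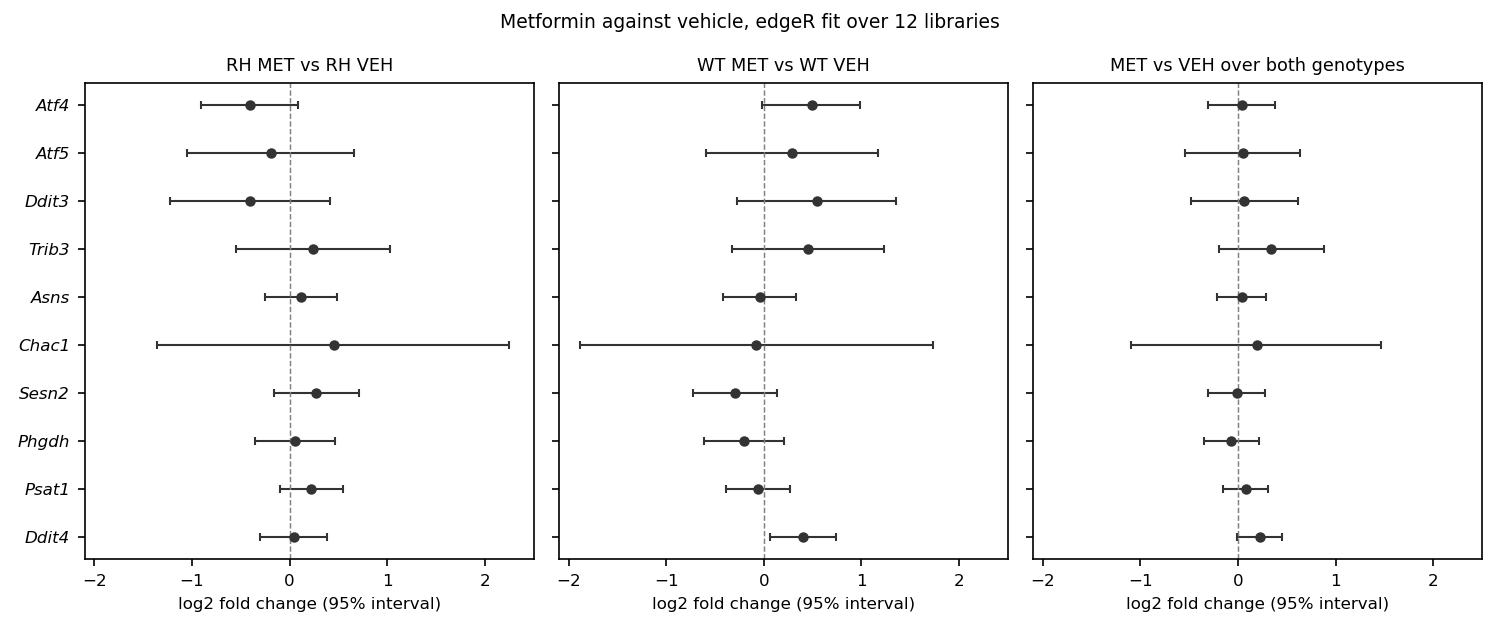
Points are log2 fold changes of metformin over vehicle (x axis) for the 10 genes, in mutant cells, in wild-type cells and over both, from 1 edgeR fit to 12 libraries, and bars are 95% intervals. All intervals cross 0 except that of Ddit4 in wild-type cells (0.06 to 0.74), and that of Chac1 is the widest in each panel.

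The metformin effect in mutant cells was set against that in wild-type cells by the interaction term of the same fit. It called 0 of 10 genes (edgeR, adjusted p 0.648 to 0.904, background 0%), with 1 of 10 genes at an unadjusted p under 0.05 against 6.21% of all genes, and DESeq2 called 0, against 0.0254% of all genes. That gene was Atf4, with a difference in log2 fold change of -0.90 ± 0.337 (95% interval -1.63 to -0.16, adjusted p = 0.648). It was -0.63 without WT MET 2 and -0.48 without both RH VEH 2 and WT MET 2. Within round 1 the Atf4 difference was -0.78 and within round 2 it was -0.93. In round 1 only RH VEH 1 and WT MET 1 stand for their groups, and in round 2 only RH MET 3 and WT VEH 3 do. Round 2 also holds RH VEH 2 and WT MET 2. The values within a round thus rest partly on single libraries. Ddit3 had a difference of -0.95 ± 0.546, which was -0.25 without the pair, -0.25 within round 1 and -1.58 within round 2. Sesn2 had a difference of 0.57 ± 0.291 in the other direction, and 0.39 without the pair, 0.75 within round 1 and 0.47 within round 2. That of Atf5 was -0.48 ± 0.59, and 0.06 without the pair. The groups of both RH VEH 2 and WT MET 2 enter this difference with a minus sign.

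Mutant cells were then compared with wild-type cells. Under vehicle, 0 of the 10 genes passed the edgeR test, on a background of 0%, with 1 gene at an unadjusted p under 0.05 against 2.03% of all genes, and DESeq2 called 0, against 0.169% of all genes. Ddit4 had 31.5, 31.8 and 29.1 CPM in RH VEH, against 23.8, 20 and 26.9 CPM in WT VEH. The libraries did not overlap, as in 2.71% of all genes in this direction (3.23% in the other, which held 0 of the 10 genes), and the log2 fold change was 0.35 ± 0.155 (95% interval 0.02 to 0.69, edgeR adjusted p = 0.977). Within round 1, where only RH VEH 1 stands for its group, it was 0.52. Within round 2, where only WT VEH 3 stands for its group, it was 0.14. The comparison of Ddit4 in wild-type cells with metformin uses the same WT VEH libraries, which were the lowest group for this gene in both. The other 3 groups had nearly one level of Ddit4, with means of 30.9 CPM in RH MET, 30.8 CPM in RH VEH and 31.9 CPM in WT MET, against 23.6 ± 3.46 CPM in WT VEH (SD, n = 3). Atf4 averaged 488 ± 131 CPM in RH VEH and 419 ± 69.6 CPM in WT VEH (SD, n = 3 each), a log2 fold change of 0.32 ± 0.23, which was 0.16 without RH VEH 2. Trib3 averaged 1.42 ± 0.86 CPM in RH VEH and 2.64 ± 1.36 CPM in WT VEH, a log2 fold change of -0.48 ± 0.364. The log2 fold changes of Asns, Phgdh, Psat1 and Sesn2 lay between -0.19 and 0.05. Without RH VEH 2 and WT MET 2, Ddit4 had 0.35, Trib3 -0.47, Atf5 0.03 where it was 0.32 with them, and Ddit3 -0.24 where it was 0.18.

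Under metformin, 0 of the 10 genes passed the edgeR test between genotypes (adjusted p 0.738 to 0.99), on a background of 0.00667% of all genes, which was 1 gene. At an unadjusted p under 0.05 there were 2 genes, Atf4 and Psat1, against 5.78% of all genes, and DESeq2 called 0 of 10, against 0.222% of all genes. Without a filter on low counts edgeR called Ddit3, with a log2 fold change of -0.71 and an adjusted p of 0.0238, where 362 of 27530 genes (1.31%) were called. Atf4 had 443, 409 and 330 CPM in RH MET, against 575, 690 and 362 CPM in WT MET, a log2 fold change of -0.57 ± 0.233 (edgeR adjusted p = 0.738) that was -0.30 without RH VEH 2 and WT MET 2. Ddit3 had 50, 48.9 and 26.5 CPM in RH MET, against 74, 72.5 and 34.3 CPM in WT MET, a log2 fold change of -0.77 ± 0.366 (adjusted p = 0.738) and of -0.49 without the pair. For both factors the highest RH MET library lay above the round 2 library WT MET 3.

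Psat1 and Sesn2 lay on the other side in the same comparison, and their libraries did not overlap, as in 7.97% of all genes in that direction, while 0 of the 10 genes had every RH MET library below, as 8.94% of all genes did. Psat1 had 148, 116 and 116 CPM in RH MET, against 103, 79 and 109 CPM in WT MET, a log2 fold change of 0.33 ± 0.152 (edgeR adjusted p = 0.738) and of 0.25 without the pair. Sesn2 had 30.6, 29.9 and 24.9 CPM in RH MET, against 23.7, 15.5 and 23.1 CPM in WT MET, a log2 fold change of 0.38 ± 0.199 and of 0.26 without the pair. Over both treatments 0 of 10 genes passed the edgeR test (background 0.00667%), with 1 gene at an unadjusted p under 0.05 against 2.65% of all genes, and DESeq2 called 0, against 0.243% of all genes. That gene was Trib3, which averaged 1.82 CPM in mutant cells and 2.59 CPM in wild-type cells, a log2 fold change of -0.59 ± 0.248 (unadjusted p = 0.0341, adjusted p = 1) and of -0.44 without RH VEH 2 and WT MET 2. Mutant and wild-type libraries overlapped for every one of the 10 genes over both treatments, where 0.02% of all genes had all mutant libraries above and 0.0733% had them all below.

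Several of the 10 genes differed between the rounds. The round was tested after its pattern had been seen, over the 10 libraries left without RH VEH 2 and WT MET 2. Atf4, Ddit3, Trib3 and Asns were lower in round 2, which made 4 of 10 genes, against 4.01% of 15325 genes called lower and 10.4% called in either direction. Ddit3 had 26.3 to 34.3 CPM in the other 4 libraries of round 2, against 48.1 to 74 CPM in round 1. Its log2 difference of -0.98 ± 0.11 had an adjusted p of 0.000899 (edgeR), and no library of the 4 reached any of round 1. Trib3 had 0.885 to 1.5 CPM there, against 2.41 to 3.92 CPM in round 1, a log2 difference of -1.4 ± 0.232 (edgeR adjusted p = 0.00456). Atf4 had 330 to 362 CPM, against 407 to 579 CPM in round 1, a log2 difference of -0.50 ± 0.104 (edgeR adjusted p = 0.0118). Asns had 145 to 205 CPM, against 209 to 273 CPM in round 1, a log2 difference of -0.43 ± 0.115 (edgeR adjusted p = 0.034). The other 6 genes did not pass; their log2 differences ran from -0.33 in Atf5 to 0.18 in Chac1. Over all 12 libraries edgeR called 0 of 10 genes for the round, and 7 of 15003 genes (0.0467%). Trib3 was then at -1.28 (adjusted p = 0.102), Asns at -0.44 (adjusted p = 0.177) and Ddit3 at -0.64 (adjusted p = 0.325). The labels do not say what differed between the rounds.

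RH VEH 2 and WT MET 2 differed from the other 4 libraries of their round in opposite ways for different genes, described here without a test because the pair was picked from its values. The transcription factors were higher in the pair, Ddit3 with 63.7 and 72.5 CPM against 26.3 to 34.3 CPM, Atf4 with 548 and 690 CPM against 330 to 362 CPM, and Atf5 with 18.8 and 18.1 CPM against 7.53 to 11.9 CPM. The corresponding log2 differences were 1.24 for Ddit3, 0.83 for Atf4 and 0.96 for Atf5, where 90% of all genes lay between -1.59 and 1.14 around a median of -0.01. The serine enzymes and Sesn2 were lower in the pair, Phgdh with 136 and 110 CPM against 167 to 181 CPM, Psat1 with 90.1 and 79 CPM against 102 to 116 CPM, and Sesn2 with 18.3 and 15.5 CPM against 23.1 to 26.3 CPM. Asns had a log2 difference of -0.08 between the pair and the other 4, and Ddit4 one of 0.03.

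Markers of other cell types moved in the same pair of libraries. Against the other 4 of round 2, all 12 granulocyte markers were lower (median log2 difference -2.24), as were 10 of 10 monocyte markers (median -1.5), while 7 of 7 megakaryocyte markers tested were higher (median 1.24). The summed granulocyte markers were 4500 to 6980 CPM in RH MET, 1520 to 4950 CPM in RH VEH, 1430 to 5630 CPM in WT MET and 3430 to 7400 CPM in WT VEH. The summed megakaryocyte markers were 757 to 830 CPM in RH MET, 704 to 1580 CPM in RH VEH, 758 to 1990 CPM in WT MET and 563 to 771 CPM in WT VEH. Outside the pair some lists also differed between the rounds, without overlap. Summed stromal and endothelial markers were 74.8 to 300 CPM in round 1, against 631 to 995 CPM in the other 4 libraries of round 2. In the same order monocyte markers summed to 308 to 406 CPM against 495 to 603 CPM. Progenitor markers summed to 637 to 878 CPM against 901 to 1100 CPM. The sums of the other lists overlapped between these libraries. No marker of these lists was at 0 in all libraries. In bulk samples fewer cells of a type and less RNA per cell cannot be told apart, and the part that these markers or the mitochondrial share have in the values of the 10 genes was not tested.

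**Figure D3:**
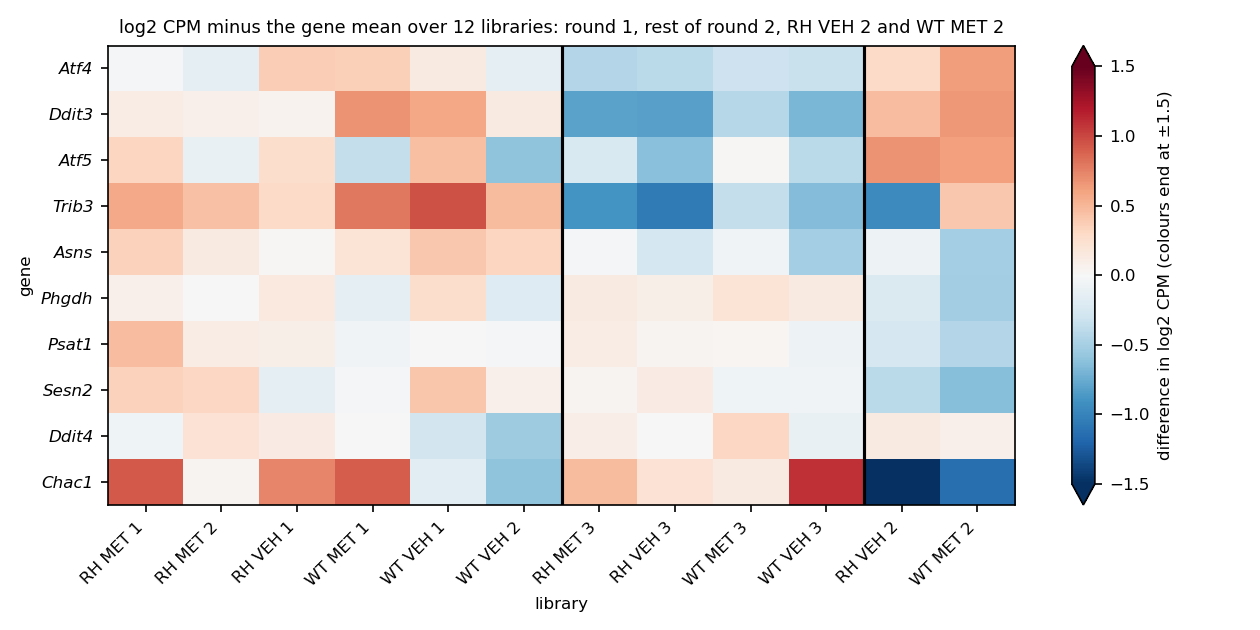
Colours give, for each of the 10 genes (rows) and 12 libraries (columns), the log2 CPM minus the gene's mean over all libraries, with round 1 at the left, the other 4 libraries of round 2 in the middle, and RH VEH 2 and WT MET 2 at the right. Atf4 and Ddit3 are below their means in the middle block and above them at the right, and Phgdh, Psat1 and Sesn2 are below their means at the right.

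Correlations between the 10 genes, with the means of the rounds subtracted, changed with the pair above. They are descriptions over libraries that share groups and depth. Atf4 and Ddit3 had a Pearson r of 0.89 over 12 libraries and of 0.51 over the 10 without the pair. Atf4 ran against Sesn2 (r = -0.86, and -0.60 without the pair) and against Psat1 (r = -0.72, and -0.30 without it). Its correlation with Phgdh changed sign, at -0.67 with the pair and 0.30 without it, as did that with Chac1, at -0.51 and 0.55. With Asns and Ddit4, Atf4 had an r of -0.36 and 0.17 over 12 libraries. Sesn2 and Phgdh had an r of 0.77 that was 0.34 without the pair. Ddit3 and its target Trib3 had an r of 0.63, and of 0.88 without the pair. Of 9173 genes searched, those with a pattern most like that of Atf4 over the 12 libraries were the ribosomal pseudogene Rps12-ps4 (r = 0.977), Prr13 (r = 0.972) and the cytoskeletal actin Actb (r = 0.97), of which Rps12-ps4 may share reads with its parent gene. Without RH VEH 2 and WT MET 2 these r were 0.937 for Rps12-ps4, 0.877 for Prr13 and 0.873 for Actb. Those most like Ddit4 were Crebzf (r = 0.863), which codes for a partner of ATF4 family factors, the noncoding RNA Dancr (r = 0.846) and Cklf (r = 0.839), with 0.963, 0.938 and 0.857 in that order without the pair.

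The rest of the pathway was read from 12 lists: eIF2 kinases, phosphatase regulators and subunits, the mitochondrial relay to HRI, bZIP partners, amino acid transporters, aminoacyl-tRNA synthetases, serine, one-carbon and proline enzymes, other targets of ATF4 and CHOP, and the chaperone, glucocorticoid, p53 and hypoxia lists. Of 158 genes besides the 10, 149 were tested, and edgeR called 0 of them in any of the 7 comparisons. For metformin in mutant cells 4 of the 149 had an unadjusted p under 0.05 in edgeR (median log2 fold change 0.03), and in wild-type cells 1 did (median 0), against 2.43% and 4.03% of all genes. Between genotypes 6 of 149 did under vehicle, 15 under metformin and 9 over both treatments, against 2.03%, 5.78% and 2.65% of all genes. For metformin over both genotypes 2 did, against 1.63%, and for the interaction 12 did, against 6.21%. The lists were not tested as sets. DESeq2 called 2 of them, Junb and Ppp1r15a, in mutant against wild-type cells under metformin, and Junb also over both treatments, where 61 and 67 of 27530 genes were called.

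The eIF2 regulators gave 1 gene with a wide difference. Ppp1r15a, which codes for GADD34, the phosphatase subunit that ends the response by dephosphorylating eIF2, had 318, 264 and 205 CPM in RH MET, against 496, 425 and 282 CPM in RH VEH. The groups overlapped through RH MET 1 and RH VEH 3, and the log2 fold change was -0.77 ± 0.202 (edgeR adjusted p = 0.932), and -0.64 without RH VEH 2 and WT MET 2. In wild-type cells it had 459, 489 and 312 CPM in WT MET, against 587, 489 and 339 CPM in WT VEH, a log2 fold change of 0.02, and of -0.19 without the pair. Between genotypes under metformin its log2 fold change was -0.85 ± 0.204 by edgeR (adjusted p = 0.738) and -0.84 by DESeq2 (adjusted p = 0.0392). Eif2ak1, the HRI kinase that takes the signal from mitochondria, had 154 CPM in all 3 RH MET libraries, against 137 to 181 CPM in RH VEH, and a log2 fold change of -0.11. Eif2ak1 had a log2 fold change of -0.17 in wild-type cells. The relay list, with OMA1 and DELE1, had 4 of 5 genes above 0 in mutant cells (median 0.13) and 0 of 5 in wild-type cells (median -0.12). Its smallest unadjusted p by edgeR was 0.143 in mutant cells (Opa1) and 0.244 in wild-type cells (Eif2ak1). Without the pair Yme1l1 of this list had 0.17 in mutant cells and 0.03 in wild-type cells, and Eif2ak1 had -0.16 and -0.14.

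Among the partners and targets of ATF4, Junb, an AP-1 factor, had 301 to 339 CPM in RH MET, against 439 to 491 CPM in RH VEH, without overlap (background 2.81% in this direction). The log2 fold change was -0.57 ± 0.16 (edgeR adjusted p = 0.932), and 0 in wild-type cells. Nupr1, a small stress-induced chromatin protein, had 2.95 to 4.48 CPM in WT MET, against 1.66 to 2.43 CPM in WT VEH, also without overlap (background 4.98% in this direction). Its log2 fold change was 0.98 ± 0.343 (edgeR adjusted p = 0.876), and -0.03 in mutant cells. Junb and Nupr1 were named for small p-values over both genotypes in these same libraries, so their lack of overlap is no test. Without the pair Junb had -0.59 in mutant cells and Nupr1 had 0.93 in wild-type cells. The transporter list had a median log2 fold change of 0.08 in mutant cells and -0.06 in wild-type cells, with the glycine transporter Slc6a9 at 0.07 and -0.34. The aminoacyl-tRNA synthetases had medians of 0.01 and -0.09 in the same order, with Aars at 0.01 and -0.16. For the unfolded protein response of the endoplasmic reticulum, which shares CHOP with this pathway, Hspa5 (BiP) had a log2 fold change of -0.02 in mutant cells and 0.41 ± 0.189 in wild-type cells (edgeR adjusted p = 0.876), and the list of 21 genes had medians of 0.01 and 0.06. The mitochondrial proteases Lonp1 and Clpx gave -0.15 and 0.09 in mutant cells and -0.15 and 0.08 in wild-type cells.

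The other genes named from the lists did not pass the edgeR test either. Among transporters Slc1a4, which carries serine and alanine, had 7.08 to 15.3 CPM in RH MET and 7.77 to 10.8 CPM in RH VEH, against 5.58 to 9.67 CPM in WT MET and 4.74 to 8.22 CPM in WT VEH. Its log2 fold change for mutant against wild-type cells was 0.61 ± 0.161 over both treatments (edgeR adjusted p = 0.928) and 0.76 ± 0.238 under vehicle (adjusted p = 0.977). The amino acid enzymes Got1 and Pycr1 had log2 fold changes for metformin of -0.21 and 0.15 in mutant cells and of -0.03 and 0.32 in wild-type cells, and their list had medians of 0.1 and 0. Vars had -0.14 in mutant cells and -0.09 in wild-type cells, and the relay protease Yme1l1 had 0.22 and -0.12. The eIF2 list had medians of 0.04 and -0.05, the bZIP list, with Cebpd at 0.37 and 0.26, medians of -0.08 and 0.11, and the list of other targets medians of -0.03 and 0.04.

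Lists for responses next to the pathway gave values on either side of 0. Xbp1, the factor of another arm of the unfolded protein response, had log2 fold changes of 0.15 in mutant cells and 0.23 in wild-type cells. The glucocorticoid-responsive genes, which share Ddit4 as a target, had medians of 0.08 and -0.21, with Tsc22d3 at -0.35 and 0.02 and Dusp1 at 0.03 and 0.25. The hypoxia list had medians of 0.08 and -0.04, with the glucose transporter Slc2a1 at 0.17 and 0.29 (0.01 and -0.11 without RH VEH 2 and WT MET 2) and Ndrg1 at 0.06 and 0.18. The p53 list had medians of -0.06 and 0, with the cell cycle inhibitor Cdkn1a at -0.15 and -0.51 and Eda2r at 0.38 and 0.61. The mitochondrial chaperones and proteases had medians of -0.06 and 0.01.

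**Figure D4:**
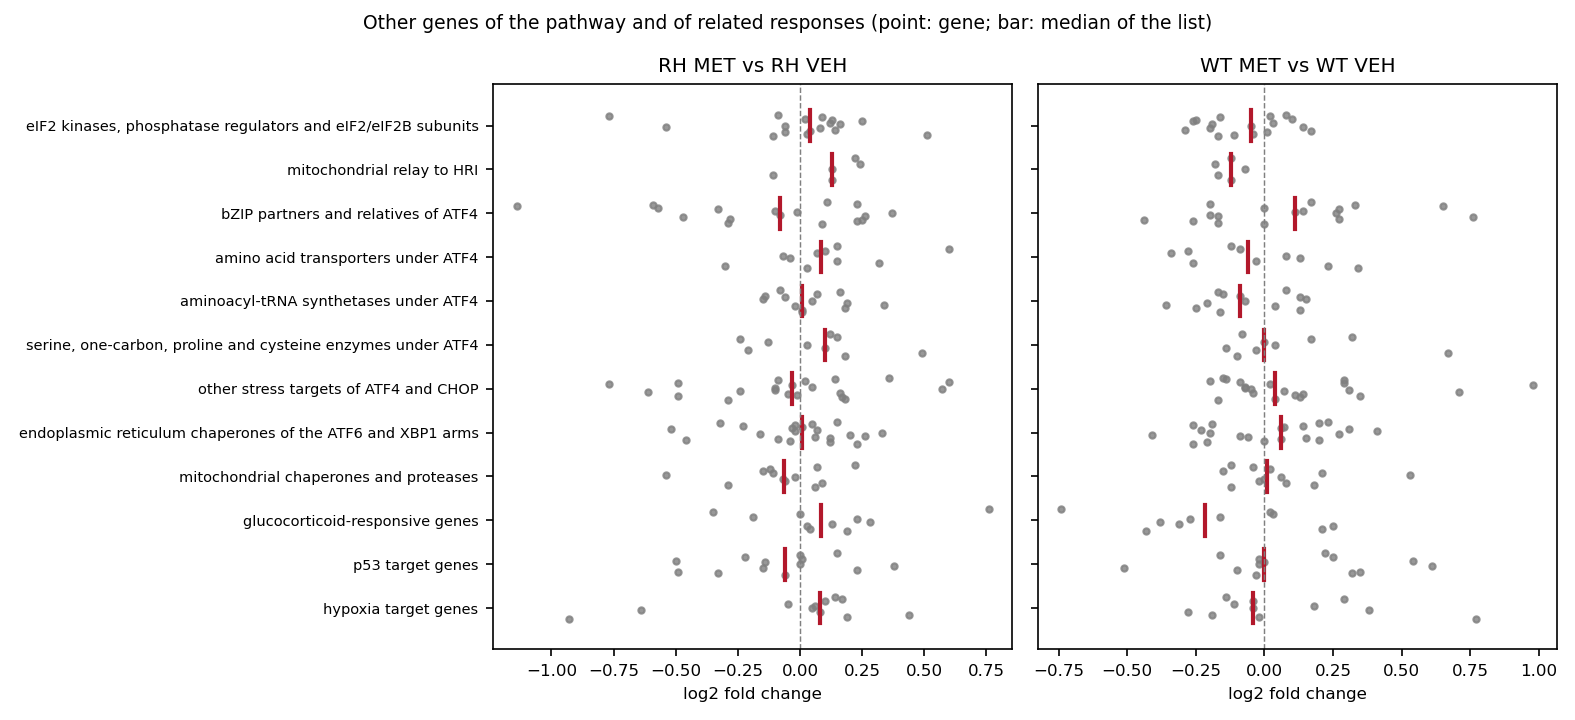
Each point is the log2 fold change (x axis) of 1 gene of the 12 lists (rows) for metformin over vehicle in mutant cells (left panel) and in wild-type cells (right panel), and red bars are medians. The medians lie between -0.21 (glucocorticoid-responsive genes in wild-type cells) and 0.13 (mitochondrial relay in mutant cells), and no gene shown passed the edgeR test.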

How the data were processed

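RNA-seq libraries (NEBNext Ultra kit, paired-end) were aligned with STAR 2.5 and counted with HTSeq 0.6.1 on mm10, per the submitters' processing notes. The deposited values are raw counts per gene, not normalised by the authors; no source names a strand setting. Columns of the table were matched to samples or groups by name, since its numbering differs from the labels, and 2 columns of the smaller table were not used. The round of a library was set by whether its counts equal a column of the smaller table in every row. The genes and lists described were chosen with earlier results of these data known. Counts were fitted in edgeR 4.0.16 (R 4.3.3, limma 3.58.1) with TMM factors, filterByExpr, a mean per group and a term for the round, and tested by the robust quasi-likelihood test with Benjamini-Hochberg adjustment over all 15003 genes; an adjusted p under 0.05 was called. The fit had 7 residual degrees of freedom and a biological coefficient of variation of 0.256. Correlations used log2 CPM with a prior count of 2. Named genes were the 10 members, the called genes of each list and the 2 of each list with the smallest unadjusted p for metformin over both genotypes, and the 3 most like Atf4 and Ddit4 among genes whose log2 CPM averaged 3 or more. Alternatives were DESeq2 1.42.0, other scalings, no filter, no round term, a replicate block, each round alone and libraries left out. The script was tested on simulated counts with known changes.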

Additional observations from a re-analysis of the deposited data

How the results depend on the processing

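Each fold change of the 10 genes was recomputed under 22 other settings, 1510 values in all. Of these, 1486 moved by less than the spread between replicates, 23 moved by at least that much and 1 passed the threshold. The spread was the SD within groups with the rounds and the pair left in, which is a wide yardstick, and most settings share most libraries. The value that passed was that of Ddit3 in mutant against wild-type cells under metformin without a filter on low counts. In that setting 1 of the 10 genes was called there. Without a filter edgeR also called genes of the other lists: 2 for metformin in mutant cells (Jund and Ppp1r15a), 1 for mutant against wild-type cells under vehicle (Gadd45a), 4 under metformin (Jund, Junb, Ppp1r15a and Bbc3), 4 over both treatments (Jund, Per1, Atf3 and Bbc3) and 3 for the interaction (Jund, Hspe1 and Gadd45a), where 229, 175, 362, 119 and 431 of 27530 genes were called. DESeq2 called 2 under metformin and 1 over both treatments; the cause was not tested. The median interaction of the 10 genes was -0.02, but 0.32 with no round term and 0.34 with a replicate block; the cause was not tested. The main fit did not pair the libraries by number, since the labels state no pairing. Libraries of the same number were more alike than others. Of 18 same-numbered pairs 13 correlated above 0.1 (r -0.01 to 0.49), against 5 of 36 other pairs (r -0.4 to 0.2). Of 12 libraries, 10 correlated best with one of their own number. All libraries numbered 1 are of round 1 and all numbered 3 of round 2, so number and round cannot be fully told apart. These are the column numbers of the table, which differ from the replicate numbers of the labels. A pairing by column number remains possible, and the replicate block gives the values under it. A pairing by the replicate numbers of the labels was not fitted. The replicate block called 0 of the 10 genes, with the Trib3 interaction at 0.59 in place of -0.21. Leaving out each library in turn called 0 of the 10 in 12 fits, with medians of 0.05 to 0.15 for metformin in mutant cells, 0.05 to 0.23 in wild-type cells, 0.01 to 0.1 over both, -0.04 to 0.05 for genotype under vehicle, -0.01 to 0.16 under metformin, -0.01 to 0.1 over both treatments and -0.15 to 0.08 for the interaction. Depth limits Trib3 and Chac1, with at most 71 and 28 counts in a library.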
